A study of Mus musculus with 12 samples.

Results

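The 49 mitotic genes described here encode proteins that carry a cell through division: the kinases and cyclins that start mitosis, the checkpoint that times anaphase, the kinetochore, the spindle, the machinery of cytokinesis, chromosome structure and 2 transcription factors of the same programme. They were chosen by symbol from the 22609 genes counted in mouse liver RNA sequencing, and 49 of 49 were found, each with at least 1 read. Each of the 12 libraries is the liver of 1 untreated adult mouse, with 3 mice for each of 4 genotypes. Wild-type mice are called WT. AEG1 mice carry Alb/AEG-1, MYC mice carry Alb/c-Myc, and AEG1_MYC mice carry both. AEG-1 (astrocyte elevated gene-1) is encoded by Mtdh. The Myc gene encodes c-Myc, which promotes growth as a transcription factor. In Alb lines the albumin promoter drives the transgene in hepatocytes. All 4 genotypes came from crosses of heterozygotes of both lines. The study's design names 3 mice a genotype, but the labels give no sex, litter, exact age or batch, and do not say whether the liver pieces held tumours. The series title names cooperation of the pair in liver cancer.

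In most adult hepatocytes the cell cycle is at rest and the mitotic genes are nearly silent, and after liver injury they are switched on as hepatocytes divide. Many of them share a promoter design. The DREAM complex binds a cell cycle homology element (CHR) near the start of the gene and holds it off in resting cells, and the MuvB core with B-MYB (Mybl2) and FOXM1 (Foxm1) turns it on in late cell cycle. CCAAT boxes upstream, bound by NF-Y, are a common part of such promoters.

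RefSeq promoter windows on GRCm38.p6, each running from 250 bases before the gene's start to 50 after it, were matched for 42 of the 49 genes, as 44 windows because some genes have more than 1 start. Ccna2, Cdc25c, Aurkb, Pbk, Tpx2, Kif20a and Foxm1 were not matched. Of the windows, 4 are shown because each holds both elements and because the genes differ in the livers: Cdk1, Ccnb2 and Top2a were higher in every AEG1_MYC liver than in any of the 9 other livers, while Aurka, the kinase of the spindle poles, was not. Capitals mark TTTGAA, the core letters of the CHR, and CCAAT, each on either strand. All 4 lie on the minus strand and are written in the direction of the gene. The windows are chr10:69352863-69353162 (Cdk1), chr9:70421505-70421804 (Ccnb2), chr11:99024140-99024439 (Top2a) and chr2:172370521-172370820 (Aurka).
Cdk1: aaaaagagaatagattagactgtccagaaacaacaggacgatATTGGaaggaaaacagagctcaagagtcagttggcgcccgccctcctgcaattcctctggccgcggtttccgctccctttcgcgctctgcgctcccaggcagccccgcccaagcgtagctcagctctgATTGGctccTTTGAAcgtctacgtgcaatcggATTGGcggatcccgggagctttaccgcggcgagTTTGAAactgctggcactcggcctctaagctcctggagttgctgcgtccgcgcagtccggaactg
Ccnb2: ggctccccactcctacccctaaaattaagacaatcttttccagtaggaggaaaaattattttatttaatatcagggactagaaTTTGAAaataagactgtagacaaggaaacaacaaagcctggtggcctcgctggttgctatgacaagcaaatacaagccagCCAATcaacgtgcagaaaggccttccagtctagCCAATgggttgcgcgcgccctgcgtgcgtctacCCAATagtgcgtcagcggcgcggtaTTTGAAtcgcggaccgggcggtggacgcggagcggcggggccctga
Top2a: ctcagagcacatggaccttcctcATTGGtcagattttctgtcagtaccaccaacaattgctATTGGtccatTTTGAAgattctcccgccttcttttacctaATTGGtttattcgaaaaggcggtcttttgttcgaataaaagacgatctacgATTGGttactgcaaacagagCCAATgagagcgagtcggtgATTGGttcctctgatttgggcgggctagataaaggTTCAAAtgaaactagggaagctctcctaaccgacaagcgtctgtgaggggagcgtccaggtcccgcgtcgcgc
Aurka: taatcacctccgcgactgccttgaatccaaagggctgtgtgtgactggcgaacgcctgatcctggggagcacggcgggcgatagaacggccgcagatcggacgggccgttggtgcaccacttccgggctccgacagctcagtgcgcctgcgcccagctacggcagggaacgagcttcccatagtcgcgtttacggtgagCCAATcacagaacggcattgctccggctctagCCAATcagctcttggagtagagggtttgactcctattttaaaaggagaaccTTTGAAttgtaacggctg

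Each of the 4 windows carries a TTTGAA match, 2 in Cdk1, Ccnb2 and Top2a and 1 in Aurka. CCAAT was found 3 times in Cdk1, 3 in Ccnb2, 6 in Top2a and 2 in Aurka. Other genes given in full below also held both elements, and these counts did not sort them. Kif11 (1 TTTGAA and 1 CCAAT) and Mki67 (2 and 3) were higher in every AEG1_MYC liver than in any other liver. Smc2 (2 and 1), Ect2 (2 and 3), Cdc20, Cenpa and Spc25 (1 and 2 each) overlapped between AEG1_MYC and WT. Among the 44 windows of the mitotic genes, TTTGAA on either strand was found in 72.7%, against 17.9% of all 32851 windows of the table. For CCAAT on either strand the shares were 77.3% and 37.4%, and both motifs stood together in 65.9% and 6.95%. Matches were counted wherever the letters stood, overlaps included. TTTGAA was most frequent in the first 25 bases after the start, where 29.5% of the mitotic windows held it against 1.31% of all windows. CCAAT peaked 75 to 50 bases before the start, in 36.4% against 6.99%. Myc's own core motif, the E-box CACGTG, stood in 6.82% of the mitotic windows and 7.15% of all windows. The E2F-type letters GCGGGAA stood in 2.27% and 4.60%. A match is a description of the letters and not a binding site. The 30 genes with TTTGAA and the 12 without it had near-equal medians of the AEG1_MYC to WT log2 fold change, 1.31 and 1.36.

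**Figure D1:**
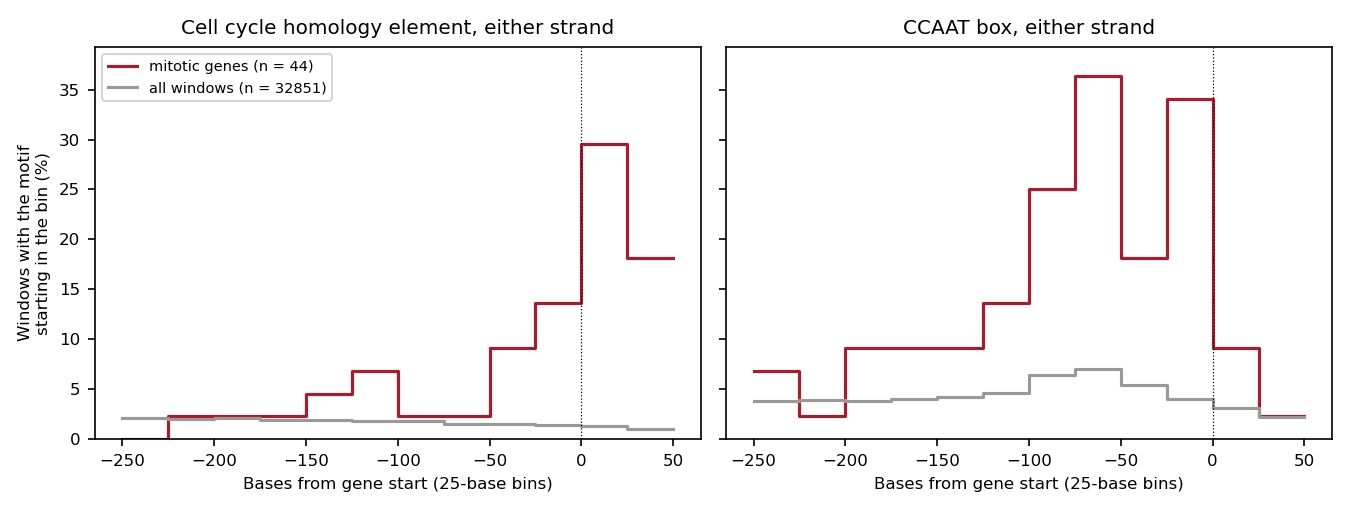
Share of promoter windows (percent) in which a motif starts in each 25-base bin, by distance in bases from the gene's start, for the 44 windows of mitotic genes (red) and all 32851 windows (grey). The cell cycle homology element (left) peaks just after the start and the CCAAT box (right) 75 to 50 bases before it in the mitotic genes, where the red lines reach 29.5% and 36.4% against 1.31% and 6.99% in grey.

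Libraries held between 21931197 and 40552316 reads in genes, of which 1206 to 8273 fell in the 49 genes. The Myc count checks the MYC labels. Myc stood at 73.0, 165 and 58.4 CPM (counts per 1e6 reads in genes, scaled for library composition) in AEG1_MYC livers, 23.4, 30.5 and 53.8 with MYC alone, 3.93, 3.54 and 4.59 with AEG1 alone and 4.73, 2.79 and 2.26 in WT. All 6 libraries labelled as MYC carriers thus lay above all 6 others. Its log2 fold change against WT was 4.91 ± 0.50 in AEG1_MYC (edgeR adjusted p = 0.00345) and 3.45 ± 0.47 in MYC (adjusted p = 0.266). Mtdh stood at a log2 fold change of -0.04 ± 0.10 for AEG1 against WT, which checks nothing, because the labels do not give the species of the AEG-1 transgene. The 8 hepatocyte markers, Alb among them, had reads in every library. AEG1_MYC replicate 2 stood apart, with a mean correlation of log2 CPM of 0.923 with the others against 0.955 or more elsewhere.

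Summed over the 49 genes, WT livers held 113, 48.6 and 66.2 CPM and AEG1 livers 49.7, 58.5 and 84.8 CPM. MYC livers held 74.6, 97.4 and 80.9 CPM and AEG1_MYC livers 119, 245 and 122 CPM. The 3 AEG1_MYC livers were thus the highest of the 12, but WT replicate 1 lay just under the lower of them. As means ± SD (n = 3) the sums were 162 ± 72.0 CPM in AEG1_MYC, 84.3 ± 11.8 with MYC alone, 64.3 ± 18.2 with AEG1 alone and 76.1 ± 33.5 in WT, which makes AEG1_MYC 2.13 times WT. AEG1_MYC replicate 2 alone held 2.03 times the mean of its 2 fellows, and it was the highest of 12 for 44 of the 49 genes (21% of all 18170 genes with a read). Without it, the AEG1_MYC sum was 1.58 times WT. WT replicate 1 in turn held 1.97 times the mean of the other 2 WT livers, and it was the highest WT liver for 46 of the 49 genes (27.6% of all genes). AEG1 replicate 3 held 1.57 times its fellows and was the highest of its genotype for 37 genes (39.4%). Replicates 1 and 3 of AEG1_MYC held 2.10 times the sum in WT replicates 2 and 3. In bulk liver RNA, more dividing cells and more of these RNAs per cell cannot be told apart.

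**Figure D2:**
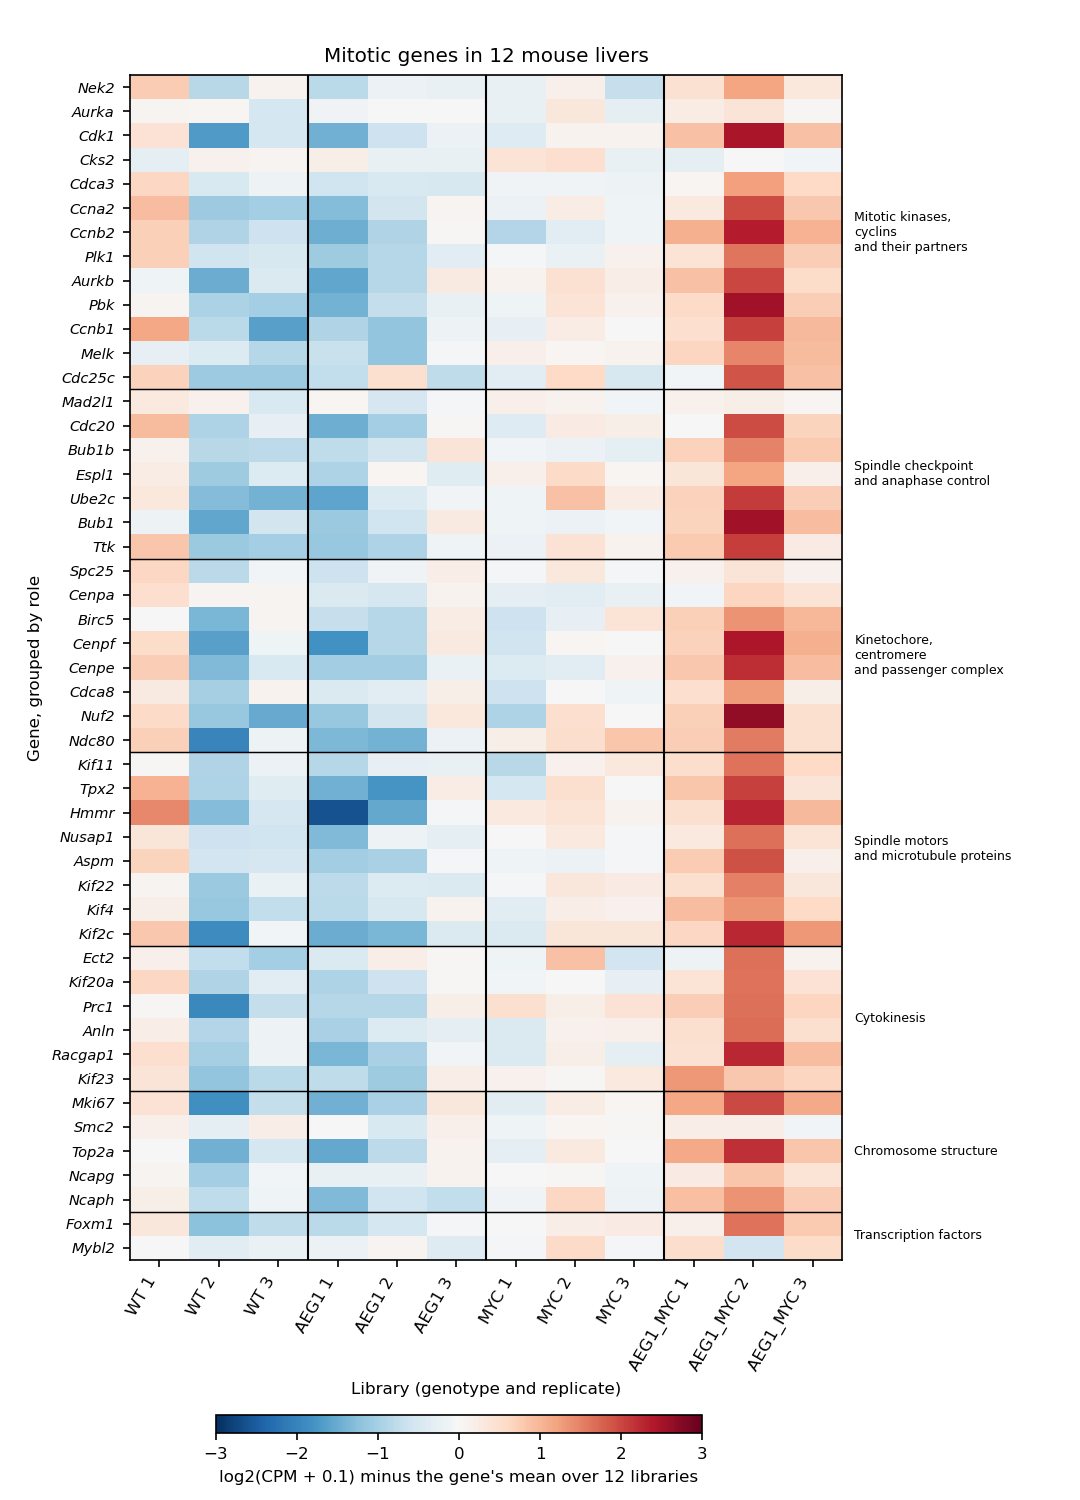
Level of each of the 49 mitotic genes in each of the 12 livers, as log2(CPM + 0.1) minus the gene's mean over the 12 livers, with genes grouped by role (rows) and livers by genotype (columns). Red columns mark WT replicate 1 and the 3 AEG1_MYC livers, replicate 2 most of all, while Aurka, Mad2l1, Smc2 and Cks2 stay near white in every column.

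Markers of other liver cells moved with some of these libraries. The 7 Kupffer cell and macrophage markers summed to 584 CPM in WT replicate 1, against 169 and 260 in the other WT livers, and all 7 were highest there among WT. In WT replicate 1 the T and NK cell markers were also the highest of WT for 8 of 9 genes, the granulocyte markers for 7 of 8 and the endothelial markers for 7 of 7. By contrast, the count was 1 of 7 for B and plasma cells, 0 of 6 for stellate cells and fibroblasts and 0 of 6 for bile duct. The stellate and bile duct sums there, 292 and 41.8 CPM, were the lowest of WT. AEG1 replicate 3 had the highest Kupffer sum of its genotype, 456 CPM, and the highest sums of all 12 libraries for T and NK cells (8.89 CPM), B and plasma cells (14.6), endothelium (343) and stellate cells and fibroblasts (514). Their part in the mitotic levels of these 2 livers was not tested. Among AEG1_MYC livers the Kupffer sum was 845, 129 and 246 CPM and the granulocyte sum 78.9, 3.47 and 0.867 CPM. Replicate 2, the liver with the most mitotic RNA, thus had the lowest Kupffer sum of the 12, and 0 of 7 Kupffer and 0 of 8 granulocyte markers were highest there. For 3 of 7 endothelial, 2 of 6 stellate and fibroblast and 1 of 6 bile duct markers replicate 2 was the highest of the 12. The same held for 1 of 7 B and plasma cell and 1 of 9 T and NK cell markers. Its stellate and bile duct sums, 212 and 28.0 CPM, were the lowest of the 12. Its endothelial and B cell sums, 311 and 10.4 CPM, were the highest of AEG1_MYC. Erythroid markers were mixed in replicate 2. Their sum was the lowest of the 12, at 84.6 CPM, of which Alas2 made up 79.3. Of the 7 with reads in any library, 3 were highest there, Gata1 and Ermap among them. In WT replicate 1, 4 of these 7 were the highest of WT. Slc4a1, the anion exchanger of red cells, stood at 1.60 CPM in replicate 2 and 1.62 in WT replicate 1, and at 0.214 or less elsewhere. The 4 globin genes were at 0 reads in every library, in counts that leave out reads aligned more than once. The erythroid sum thus holds no globin reads. Hepatocyte markers summed to 102900 to 110990 CPM in WT, 80435 to 87765 in AEG1, 67638 to 84098 in MYC and 34156 to 72926 CPM in AEG1_MYC livers, with the lowest value in replicate 2. Such a sum weighs the most abundant markers most. Gene by gene, the 8 hepatocyte markers had a median log2 fold change of -0.26 in AEG1_MYC against WT, from -1.13 to -0.13. The part of these markers in the AEG1_MYC levels was not tested.

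Between AEG1_MYC and WT, the mean level was higher in AEG1_MYC for 48 of the 49 genes, and for 21 of the 49 every AEG1_MYC liver lay above every WT liver (8.68% of all genes). Ratios of the means reached at least 2 for 38 genes, at least 3 for 18 and at least 4 for 9, with a median of 2.57. Without AEG1_MYC replicate 2 these counts were 20, 3 and 0, with a median of 1.8. Without WT replicate 1 they were 41, 34 and 25 of the 48 genes with WT reads left, with a median of 4.03. The highest ratios, named after their values were seen, were those of Bub1 (6.44), Pbk (5.29), Nuf2 (4.88) and Ube2c (4.45). The 8 genes with a ratio under 1.5 were Nek2, Mybl2, Aurka, Spc25, Cenpa, Mad2l1, Smc2 and Cks2. Even so, edgeR's quasi-likelihood test called 0 of the 48 genes that passed its filter on low counts (of all 13684 genes tested, 0.256% were called higher and 0.00731% lower). Cdc25c, with at most 23 reads in a library, did not pass the filter. The lowest adjusted p was 0.109, of Melk. At an unadjusted p under 0.05, 31 of 48 were higher (9.66% of all genes) and 0 lower (7.56%). DESeq2 called 12 of 49 higher (3.06%): Aurkb, Bub1, Bub1b, Cdk1, Kif11, Kif4, Melk, Mki67, Ncaph, Pbk, Prc1 and Top2a. Limma called 0 (0.168%). Without AEG1_MYC replicate 3, edgeR called Top2a (adjusted p = 0.0428) and Bub1 (adjusted p = 0.0493) higher, in a setting where it called 3.12% of all genes higher. The SE of these log2 fold changes had a median of 0.488 over the 48 genes, against 0.208 over all genes tested.

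**Figure D3:**
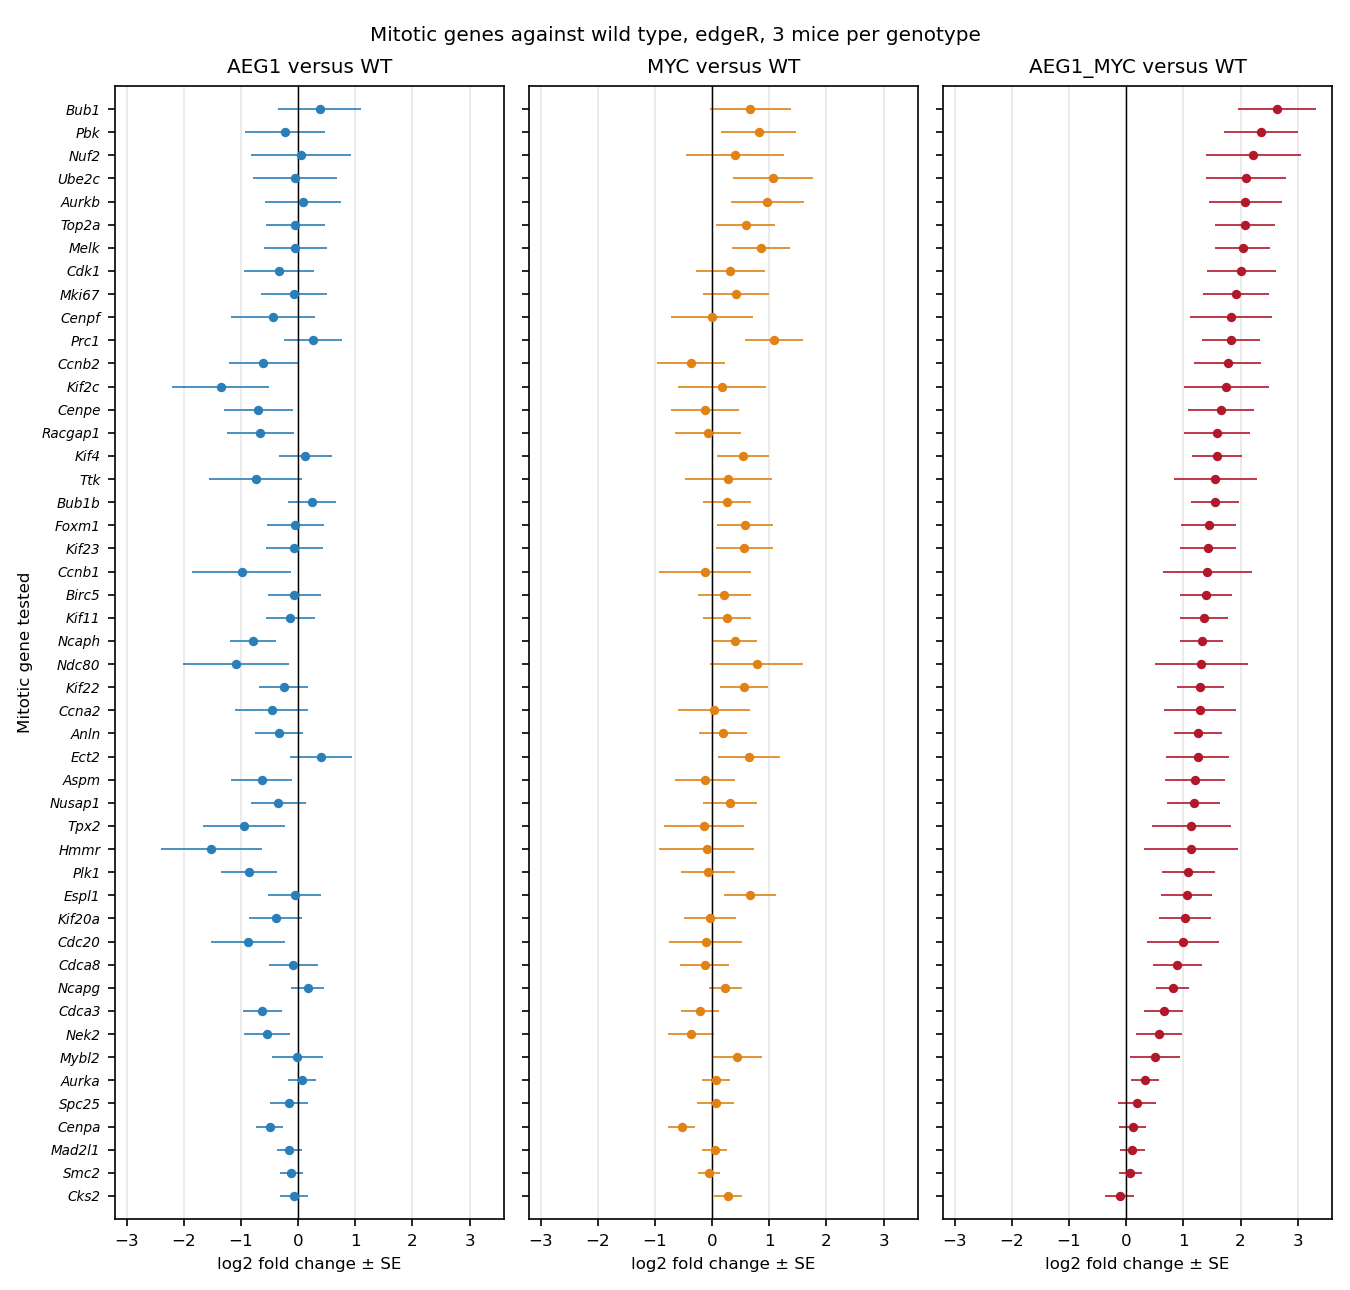
Log2 fold change ± SE (edgeR, 3 livers a genotype) of the 48 mitotic genes tested, for AEG1, MYC and AEG1_MYC against the same 3 WT livers, ordered by the AEG1_MYC value. In the right panel 47 points lie above 0, from Bub1 at 2.64 down to Smc2 at 0.07, with Cks2 at -0.12 below. In the left panel most points lie below 0, and in the middle panel they scatter on both sides of 0.

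More genes were without overlap against AEG1. Every AEG1_MYC liver lay above every AEG1 liver for 41 of 49 genes (8.7% of all genes), the exceptions being Cks2, Cdc25c, Cdc20, Cenpa, Spc25, Ect2, Smc2 and Mybl2. EdgeR called 0 of 48 higher (0.3% of all genes), with a lowest adjusted p of 0.0660 for Ncaph. There were 41 of 48 higher at an unadjusted p under 0.05 (10.1%). DESeq2 called 25 of 49 (3.4%) and limma 0 (0.424%). Without AEG1_MYC replicate 3, edgeR called 5 genes higher, which were Aspm, Ccnb2, Ncaph, Pbk and Top2a, while the share of all genes called higher went to 2.82%. Against MYC, AEG1_MYC livers did not overlap for 31 of 49 genes (8.4%). EdgeR called 0 of 48 higher (0.205%), with 24 of 48 at an unadjusted p under 0.05 (8.86%), and DESeq2 called 1, Ccnb2 (2.56%). Limma called 0 (0.183%). For 19 genes every AEG1_MYC liver lay above all 9 other livers (2.69%).

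In MYC and in AEG1 livers none of the 3 tools called any of these genes against WT. EdgeR and limma called 0 of all genes in both comparisons. DESeq2 called 0.13% of all genes higher and 0.0616% lower in MYC, and 0.0441% higher and 0.0386% lower in AEG1. In MYC the mean was higher than in WT for 34 of 49 genes, and for Aurkb, Melk and Prc1 every MYC liver lay above every WT liver (4.91% of all genes). The reverse held for 1 gene, Cenpa (5.12%). By edgeR 0 were higher in MYC at an unadjusted p under 0.05 (1.84%) and 1, Cenpa, was lower (1.63%). In AEG1 the mean was higher for 11 of 49 genes, and 0 were without overlap (4.57%). At an unadjusted p under 0.05 in edgeR, 0 were higher in AEG1 (1.99%) and 0 lower (1.93%). WT replicate 1 bears on both counts: without it, every MYC liver lay above the other 2 WT livers for 31 genes (9.36% of all genes) and every AEG1 liver for 4 (8.44%), and the AEG1_MYC count went from 21 to 43 (12.9%). With fewer livers there is also less room for overlap. MYC livers lay above every AEG1 liver for 12 genes (5.45%). There edgeR called 0 of them and 0 of all 13684 genes tested. DESeq2 (0.0386% of all genes higher, 0.0331% lower) and limma (0.0292%) called 0 of them as well. Ncaph alone passed an unadjusted p under 0.05 in edgeR (2.1%).

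The medians of the log2 fold change over all 49 genes, fitted without a filter, put these comparisons side by side. They were -0.24 for AEG1, 0.26 for MYC and 1.32 for AEG1_MYC, each against the same 3 WT livers, while the median over all genes was 0.01 or nearer to 0. AEG1_MYC stood at a median of 1.77 against AEG1 and 1.11 against MYC, and MYC at 0.53 against AEG1. The AEG1 to WT median turned to 0.18 without WT replicate 1. In the same setting, the MYC to WT median was 0.74, and it was -0.05 without WT replicate 2. The AEG1_MYC to WT median was 2.02 without WT replicate 1 and 0.84 without AEG1_MYC replicate 2. The interaction, which is the AEG1_MYC minus MYC difference less the AEG1 minus WT difference, had a median of 1.48 over the 49 genes. EdgeR called 0 of 48 higher in it (0.0219% of all genes), with 16 higher at an unadjusted p under 0.05 (5.67%). DESeq2 (0.836%) and limma (0.0365%) called 0 as well. The interaction median was 0.78 without WT replicate 1, and 0.28 without both WT replicate 1 and AEG1_MYC replicate 2, a setting chosen after the data were seen. In the test of any difference among the 4 genotypes edgeR called 0 of 48 (0.519%), with 31 at an unadjusted p under 0.05 (12.7%). DESeq2 called 21 of 49 (5.12%) and limma 0 (0.212%).

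Comparing carriers of a transgene with non-carriers, 6 livers against 6, was chosen after the data were seen. Between MYC carriers and non-carriers the median over the 49 genes was 1.0, and 49 of 49 values were positive. EdgeR called 0 of 48 higher (0.095% of all genes), with 30 at an unadjusted p under 0.05 (6.53%), and limma called 0 (0.285%). DESeq2 called 4 higher (1.52%), Ncaph, Pbk, Prc1 and Top2a. Between AEG1 carriers and non-carriers the median was 0.37. There 0 of 48 were called higher by edgeR (0.0512%), as did DESeq2 (0.395%) and limma (0.0512%). At an unadjusted p under 0.05 in edgeR 2 were higher (5.33%), Bub1 and Bub1b. Without AEG1_MYC replicate 2 the medians were 0.71 for MYC carriers and 0.12 for AEG1 carriers, and without WT replicate 1 they were 1.33 and 0.64.

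**Figure D4:**
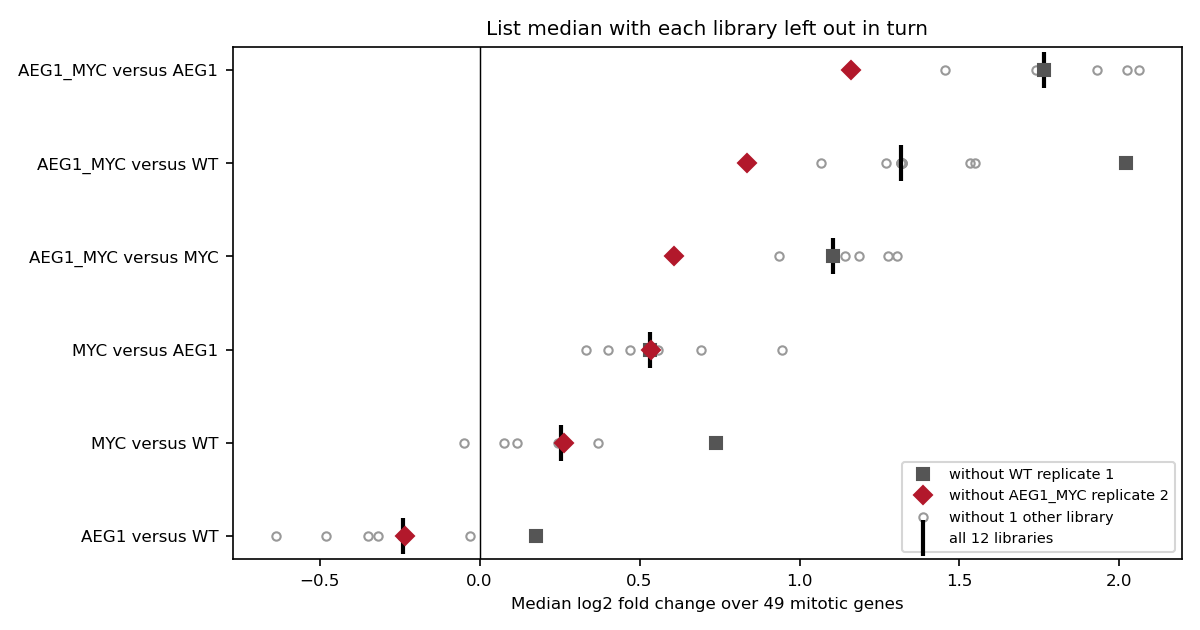
Median log2 fold change over the 49 mitotic genes in 6 comparisons, with all 12 libraries (bars) and with each library left out in turn (points). The 3 comparisons of AEG1_MYC stay above 0 in every setting shown, and AEG1_MYC replicate 2 (diamonds) gives the lowest value in each, while WT replicate 1 (squares) gives the highest against WT, 2.02.

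The 13 mitotic kinases, cyclins and their partners summed to 36.5 ± 17.5 CPM in AEG1_MYC livers, 18.3 ± 2.95 with MYC alone, 14.2 ± 2.65 with AEG1 alone and 18.0 ± 7.73 in WT (SD, n = 3). Cdk1, the kinase that drives the cell into mitosis, stood at 3.47, 10.5 and 3.50 CPM in AEG1_MYC livers, against 1.38, 2.01 and 1.98 with MYC alone, 0.613, 1.16 and 1.63 with AEG1 alone and 2.53, 0.498 and 1.24 in WT. The 3 AEG1_MYC livers lay above all others, with WT replicate 1 the next highest. The log2 fold change against WT was 2.01 ± 0.61 (edgeR adjusted p = 0.166). Its partner cyclin B2, Ccnb2, stood at 2.54, 6.37 and 2.50 CPM in AEG1_MYC livers, against 0.587, 0.920 and 1.05 with MYC alone, 0.362, 0.582 and 1.21 with AEG1 alone and 1.98, 0.574 and 0.726 in WT. Here too the AEG1_MYC livers were the highest of the 12, while MYC livers lay within the range of WT livers. Ccnb2 differed by 1.78 ± 0.58 from WT (edgeR adjusted p = 0.182) and by 2.15 ± 0.59 from MYC (adjusted p = 0.177). Melk, a kinase of dividing cells, stood at 0.429, 0.830 and 0.546 CPM in AEG1_MYC livers, against 0.276, 0.251 and 0.264 with MYC alone, 0.112, 0.0485 and 0.226 with AEG1 alone and 0.183, 0.153 and 0.0854 in WT. These levels rest on 1 to 28 reads a library, and MYC livers lay between WT and AEG1_MYC with no overlap on either side. The AEG1_MYC to WT value was 2.04 ± 0.48 (edgeR adjusted p = 0.109).

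Smaller log2 fold changes were found in other genes of this group. Nek2, which separates the centrosomes, stood at 5.48, 9.13 and 4.91 CPM in AEG1_MYC livers, against 3.35, 4.40 and 2.40 with MYC alone, 2.20, 3.49 and 3.36 with AEG1 alone and 6.71, 2.18 and 4.23 in WT. WT replicate 1 was the second highest liver, so WT and AEG1_MYC overlapped, with a log2 fold change of 0.57 ± 0.40 (edgeR adjusted p = 0.483). Aurka, whose promoter is shown above, stood at 3.30, 3.70 and 2.86 CPM in AEG1_MYC livers, against 2.38, 3.54 and 2.27 with MYC alone, 2.59, 2.81 and 2.79 with AEG1 alone and 2.99, 2.91 and 1.92 in WT. All 4 genotypes lay within a narrow range, and the AEG1_MYC to WT value was 0.33 ± 0.24 (edgeR adjusted p = 0.496). Cks2, a small subunit that binds Cdk1, was named after its values were seen. It stood at 1.98, 2.49 and 2.31 CPM in AEG1_MYC livers, against 3.28, 3.54 and 2.11 with MYC alone, 2.79, 2.09 and 2.11 with AEG1 alone and 2.04, 2.72 and 2.61 in WT. The genotypes overlapped fully, with -0.12 ± 0.25 against WT (edgeR adjusted p = 0.833). The remaining 7 genes of this group, with ratios of the AEG1_MYC to the WT mean from 1.58 to 5.29, were Ccna2, Ccnb1, Plk1, Aurkb, Pbk, Cdca3 and Cdc25c. Cyclin A2 (Ccna2), cyclin B1 (Ccnb1) and polo-like kinase 1 (Plk1) were high in WT replicate 1 as well and overlapped between WT and AEG1_MYC. Aurkb, the kinase of the passenger complex, and Pbk did not overlap.

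**Figure D5:**
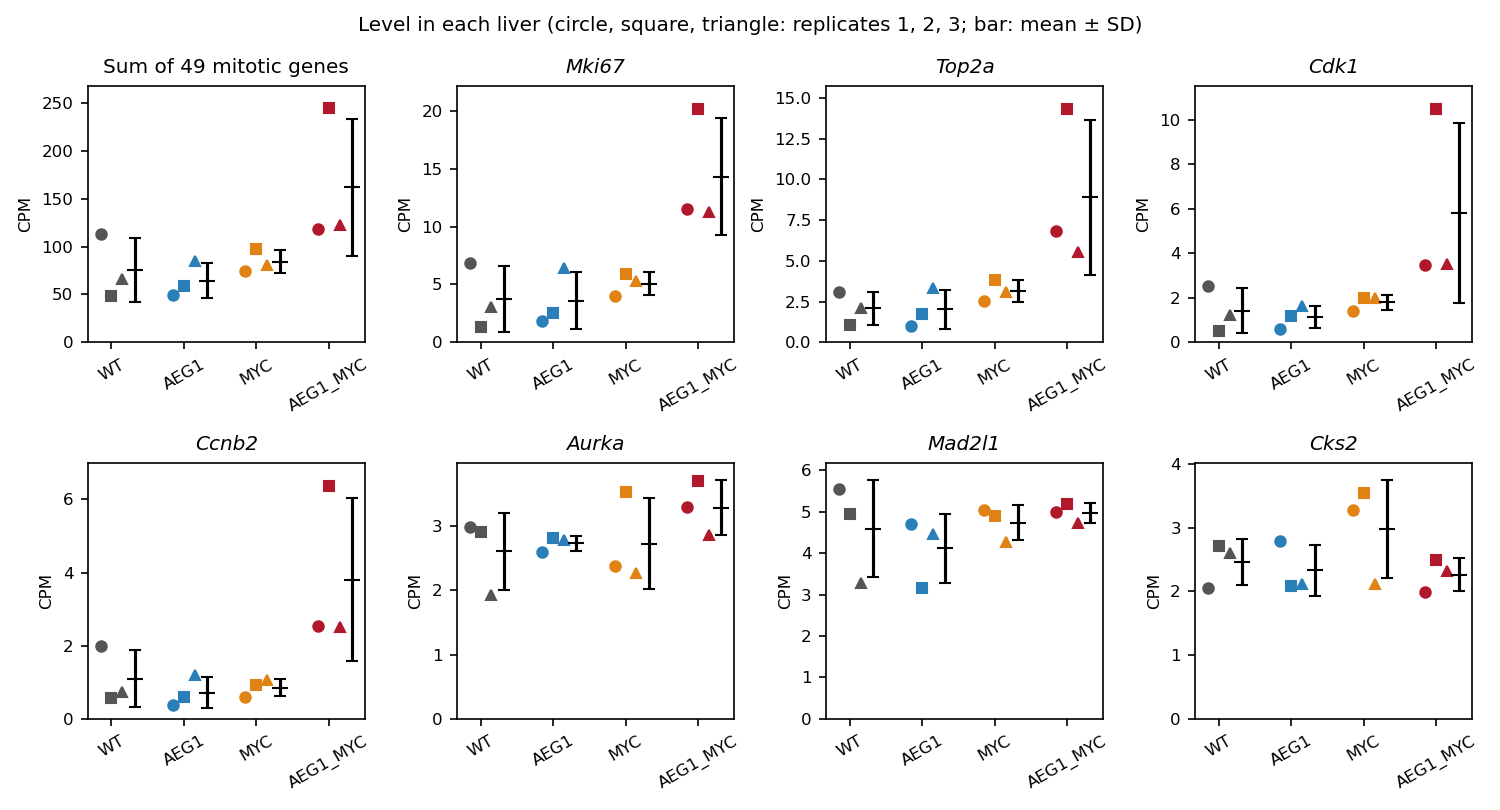
CPM in each of the 12 livers for the sum of the 49 mitotic genes and for 7 of them, with mean ± SD beside each genotype's 3 points. Mki67, Top2a, Cdk1 and Ccnb2 have their 3 AEG1_MYC points above all others, whereas in Aurka, Mad2l1 and Cks2 they overlap with the WT and MYC points.

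The 7 genes of the spindle checkpoint and of anaphase control summed to 8.61 ± 3.47 CPM in WT and 16.2 ± 6.99 CPM in AEG1_MYC livers. Bub1, a kinase of the checkpoint that holds back anaphase until chromosomes are attached, stood at 0.727, 2.87 and 0.899 CPM in AEG1_MYC livers, against 0.380, 0.362 and 0.395 with MYC alone, 0.139, 0.243 and 0.527 with AEG1 alone and 0.366, 0.0766 and 0.256 in WT. AEG1_MYC livers were the highest 3, and replicate 2 exceeded the next by far. Bub1 had the largest log2 fold change against WT among the 48 mitotic genes tested, 2.64 ± 0.68 (edgeR adjusted p = 0.127). Cdc20, which activates the ligase that starts anaphase, stood at 1.45, 6.05 and 2.41 CPM in AEG1_MYC livers, against 1.11, 1.78 and 1.69 with MYC alone, 0.474, 0.679 and 1.51 with AEG1 alone and 2.96, 0.727 and 1.24 in WT. WT replicate 1 lay above AEG1_MYC replicates 1 and 3, and the value against WT was 1.0 ± 0.63 (edgeR adjusted p = 0.435). Mad2l1, the checkpoint protein that binds Cdc20, stood at 4.99, 5.19 and 4.72 CPM in AEG1_MYC livers, against 5.04, 4.90 and 4.27 with MYC alone, 4.71, 3.15 and 4.47 with AEG1 alone and 5.55, 4.94 and 3.29 in WT. Its highest liver was WT replicate 1, and AEG1_MYC differed from WT by 0.11 ± 0.22 (edgeR adjusted p = 0.822). Bub1b, Ube2c, Ttk and Espl1 had ratios of 2.10 to 4.45. The AEG1_MYC livers lay above every WT liver for Bub1b and for Ube2c, the conjugating enzyme of the same ligase.

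Among the 8 genes of the kinetochore, the centromere and the passenger complex, the sum was 15.2 ± 6.29 CPM in WT and 25.7 ± 9.43 CPM in AEG1_MYC livers. The 2 with the highest CPM, Spc25 and Cenpa, were among those with the smallest ratios. Spc25, a subunit of the NDC80 complex that grips microtubules, stood at 5.65, 6.79 and 5.65 CPM in AEG1_MYC livers, against 4.97, 6.55 and 5.01 with MYC alone, 3.35, 4.80 and 5.98 with AEG1 alone and 8.05, 2.91 and 4.87 in WT. WT replicate 1 was the highest liver of the 12, and the AEG1_MYC to WT value was 0.19 ± 0.33 (edgeR adjusted p = 0.795). Cenpa, the histone of the centromere, stood at 4.2, 6.99 and 5.87 CPM in AEG1_MYC livers, against 3.66, 3.46 and 3.74 with MYC alone, 3.23, 3.11 and 4.77 with AEG1 alone and 6.34, 4.71 and 4.66 in WT. All 3 MYC livers lay below all 3 WT livers, a log2 fold change of -0.53 ± 0.24 (unadjusted p = 0.0474 in edgeR, adjusted p = 0.999). Against WT, AEG1_MYC stood at 0.12 ± 0.24 (edgeR adjusted p = 0.823). The other subunits of the NDC80 complex counted here, Ndc80 and Nuf2, had ratios of 2.58 and 4.88, but both overlapped between WT and AEG1_MYC. Cenpe and Cenpf, which join chromosomes to the spindle, had 3.21 and 3.6, and their AEG1_MYC livers lay above all others. The same held for Birc5 (survivin), at a ratio of 2.64, whereas its partner Cdca8 overlapped at 1.86.

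The 8 spindle motors and microtubule proteins summed to 8.57 ± 5.36 CPM in WT and 20.9 ± 11.9 CPM in AEG1_MYC livers. Kif11, the motor that pushes the spindle poles apart, stood at 2.71, 5.99 and 2.89 CPM in AEG1_MYC livers, against 1.0, 2.03 and 2.35 with MYC alone, 0.976, 1.55 and 1.58 with AEG1 alone and 1.92, 0.957 and 1.62 in WT. Every AEG1_MYC liver lay above every other liver, and the log2 fold change against WT was 1.36 ± 0.43 (edgeR adjusted p = 0.173). Tpx2, which activates Aurora A on the spindle, stood at 2.58, 6.10 and 1.86 CPM in AEG1_MYC livers, against 0.933, 1.98 and 1.40 with MYC alone, 0.446, 0.340 and 1.63 with AEG1 alone and 2.99, 0.689 and 1.07 in WT. WT replicate 1 was second only to AEG1_MYC replicate 2, so the groups overlapped at 1.14 ± 0.69 (edgeR adjusted p = 0.418). Kif2c, Kif4, Kif22, Nusap1, Hmmr and Aspm had ratios of 2.23 to 3.47. In this role WT replicate 1 held 2.63 times the mean of the other WT livers and AEG1_MYC replicate 2 held 2.47 times its fellows, the widest gaps between replicates of the 7 roles.

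For the 6 cytokinesis genes the sums were 9.67 ± 4.88 CPM in WT and 24.5 ± 13.7 CPM in AEG1_MYC livers. Kif20a, a motor of the central spindle, stood at 3.57, 8.51 and 3.66 CPM in AEG1_MYC livers, against 2.52, 2.70 and 2.24 with MYC alone, 1.37, 1.70 and 2.76 with AEG1 alone and 4.18, 1.38 and 2.09 in WT. It shares 29.3% of its exon bases with Cdc23 on the opposite strand in GENCODE M21, so its reads are uncertain where strand was not kept. WT replicate 1 lay above 2 of the AEG1_MYC livers, at 1.03 ± 0.46 against WT (edgeR adjusted p = 0.277). Ect2, the exchange factor that starts the contractile ring, stood at 3.67, 13.1 and 4.40 CPM in AEG1_MYC livers, against 3.70, 7.58 and 2.69 with MYC alone, 2.98, 4.66 and 4.14 with AEG1 alone and 4.51, 2.37 and 1.96 in WT. AEG1_MYC replicate 2 was far above the rest and replicates 1 and 3 lay among WT and MYC livers. The AEG1_MYC to WT value was 1.25 ± 0.55 (edgeR adjusted p = 0.275), and against MYC it was 0.60 ± 0.53 and turned to -0.21 without that liver. Prc1, Anln and Kif23 had AEG1_MYC livers above all others, with ratios of 3.59, 2.41 and 2.75. Racgap1, at 3.03, overlapped with WT replicate 1.

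The 5 genes of chromosome structure summed to 35.2 ± 11.5 CPM in AEG1_MYC livers, 17.5 ± 2.34 with MYC alone, 14.0 ± 4.79 with AEG1 alone and 14.7 ± 5.68 in WT. Mki67, the proliferation marker that coats mitotic chromosomes, stood at 11.5, 20.2 and 11.3 CPM in AEG1_MYC livers, against 3.97, 5.91 and 5.30 with MYC alone, 1.81, 2.52 and 6.40 with AEG1 alone and 6.89, 1.34 and 3.03 in WT. The lowest AEG1_MYC liver lay well above the highest of the others, WT replicate 1. Its log2 fold change against WT was 1.92 ± 0.58 (edgeR adjusted p = 0.168). Top2a, the topoisomerase that untangles sister chromatids, stood at 6.84, 14.3 and 5.52 CPM in AEG1_MYC livers, against 2.52, 3.82 and 3.11 with MYC alone, 1.0, 1.75 and 3.31 with AEG1 alone and 3.11, 1.07 and 2.09 in WT. MYC and AEG1 livers overlapped with WT livers, and AEG1_MYC livers with none, at 2.08 ± 0.52 against WT (edgeR adjusted p = 0.122). Ncaph, a condensin subunit, stood at 1.68, 2.34 and 1.51 CPM in AEG1_MYC livers, against 0.794, 1.37 and 0.764 with MYC alone, 0.279, 0.534 and 0.477 with AEG1 alone and 0.976, 0.459 and 0.769 in WT. AEG1_MYC livers were again the highest 3. It differed by 2.11 ± 0.39 from AEG1 (edgeR adjusted p = 0.0660) and by 1.32 ± 0.38 from WT (adjusted p = 0.150). Smc2, the condensin ATPase subunit with which it works, stood at 6.54, 6.58 and 5.39 CPM in AEG1_MYC livers, against 5.18, 5.96 and 5.82 with MYC alone, 5.69, 4.12 and 6.35 with AEG1 alone and 6.34, 4.71 and 6.53 in WT. The genotypes overlapped fully, at 0.07 ± 0.20 against WT (edgeR adjusted p = 0.867). Ncapg, of the same complex, had a ratio of 1.76 with its AEG1_MYC livers above all others.

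Both transcription factors of the programme were low. Foxm1 stood at 1.45, 4.24 and 2.31 CPM in AEG1_MYC livers, against 1.31, 1.5 and 1.55 with MYC alone, 0.697, 0.874 and 1.26 with AEG1 alone and 1.68, 0.498 and 0.726 in WT. AEG1_MYC replicate 1 lay below WT replicate 1, and the value against WT was 1.44 ± 0.48 (edgeR adjusted p = 0.186). Mybl2 stood at 0.562, 0.207 and 0.578 CPM in AEG1_MYC livers, against 0.345, 0.585 and 0.343 with MYC alone, 0.307, 0.388 and 0.251 with AEG1 alone and 0.366, 0.268 and 0.299 in WT. In AEG1_MYC replicate 2, the highest liver for 44 of the genes, it was at its lowest of the 12, on 7 reads. Mybl2 differed by 0.51 ± 0.44 between AEG1_MYC and WT (edgeR adjusted p = 0.565).

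Per kilobase of merged exons in GENCODE M21, the highest mean levels over the 12 livers were those of Cks2 (3.62 CPM per kb), Spc25 (1.69), Aurka (1.12), Ccnb2 (1.06) and Smc2 (1.05). In WT livers alone the highest 5 were Cks2 (3.55), Spc25 (1.66), Smc2 (1.07), Aurka (1.03) and Nek2 (0.968), all among the 8 with a ratio under 1.5. Ccnb2 stood at 0.715 in WT and 2.49 in AEG1_MYC livers. These lengths are an approximation, because the annotation behind the counts is not given in the sources used here. Exon bases of 9 of the 49 genes are shared with a counted gene on the opposite strand, namely Ccna2, Cdc20, Ube2c (22.8% of its bases), Cdca8, Kif4, Nusap1, Kif20a, Prc1 and Ncapg. Of the 49, Ccnb1, Ccnb2, Kif4 and Kif22 have named pseudogenes, so their counts are less certain.

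Genes of other cell cycle steps were compared in the same fit. A list of 44 further mitotic genes had a median log2 fold change of 1.12 in AEG1_MYC against WT, with 40 positive, and for 18 of 44 every AEG1_MYC liver lay above every WT liver (8.68% of all genes). EdgeR called 0 of its 40 tested genes there and 1 higher against AEG1 (0.3% of all genes), the spindle motor Kif15. Kif15 stood at 1.49, 2.02 and 1.25 CPM in AEG1_MYC livers, against 0.276, 0.669 and 0.632 with MYC alone, 0.223, 0.243 and 0.402 with AEG1 alone and 0.519, 0.268 and 0.299 in WT. Its AEG1_MYC livers lay above all others, and it was higher than in AEG1 by 2.42 ± 0.43 (edgeR adjusted p = 0.0482). The 2 genes of this list with the highest CPM, Zwint and Bub3 of the kinetochore and checkpoint, stood at 0.01 ± 0.11 and -0.23 ± 0.08 against WT (edgeR adjusted p = 0.971 and 0.205).

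Genes that act before mitosis had medians nearer to 0. The median against WT was 0.36 for 16 genes of G1 and S phase entry and 0.33 for 30 genes of DNA replication, and edgeR called 0 of the 16 and 0 of the 29 tested. At an unadjusted p under 0.05, 7 of the 16 and 6 of the 29 were higher (9.66% of all genes). The lists reach up to 1.78 (Ccne1, cyclin E1) and 2.39 (Uhrf1, a chromatin protein of replicating DNA). In the first list, the 2 genes with the highest CPM are Ccnd1 and Cdk4. Ccnd1, cyclin D1, was lower on average in AEG1_MYC than in WT livers at -0.65 ± 0.49 (edgeR adjusted p = 0.518), and its partner kinase Cdk4 stood at 0.75 ± 0.26 (adjusted p = 0.193). In the second, the 2 with the highest CPM, Mcm10 and Gins4 stood at 0.01 ± 0.42 and 0.13 ± 0.15 (edgeR adjusted p = 0.994 and 0.659). The 20 cell cycle inhibitors and DREAM subunits had a median of 0.02, and the 3 NF-Y subunits one of -0.10. In the former, Rbbp4 and Rbl2, both DREAM subunits, stood at -0.03 ± 0.22 and -0.05 ± 0.21, and in the latter Nfyb and Nfya stood at -0.11 ± 0.22 and -0.03 ± 0.22. Of the tested genes of both lists, 19 and 3, edgeR called 0. At an unadjusted p under 0.05 in edgeR, 2 of the 19 and 0 of the 3 were higher (9.66% of all genes). The list of inhibitors and DREAM subunits reached up to 2.47. The difference between these lists and the 49 genes was not tested.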

How the data were processed

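RNA from the livers of 12 mice was extracted with a Qiagen miRNeasy kit and made into Illumina TruSeq libraries, per the labels' protocols. The authors deposited read counts per gene, whole numbers and not normalized. The submitters' processing notes name CASAVA 1.8.2, TopHat2 2.0.7, HTSeq and mm9; the HTSeq version, its strand setting and the annotation are not given in the sources used here. Summary lines that name no gene were left out: reads aligned more than once made up 46.5% to 58.0% of what was counted per library, no feature 5.31% to 8.28% and ambiguous 0.282% to 0.399%. Genes with near-identical copies can be undercounted.

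All 22609 genes were fitted in R 4.3.3 with edgeR 4.0.16 (TMM scaling, filterByExpr, robust quasi-likelihood F test, 1 coefficient per genotype, all 12 libraries), with Benjamini-Hochberg adjustment over 13684 genes and a threshold of 0.05. Printed CPM use TMM-scaled totals. DESeq2 1.42.0 and limma 3.58.1 with library quality weights were alternatives, and list medians come from an edgeR fit with no filter. The scripts were tested on simulated data. P-values set each difference against the spread among livers of the same genotype, with the estimate shared by all genotypes. Replicates were numbered in accession order.

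Members and gene lists were chosen with earlier results of these data known. Members given in full are the 2 with the highest CPM of each role, the 5 with the lowest p in the test of any difference, and Mki67, Cdk1, Top2a and Foxm1. Of the other lists, called genes and the 2 with the highest CPM are named. Promoters are RefSeq windows on GRCm38.p6, used for letters only, since the counts use mm9.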

Additional observations from a re-analysis of the deposited data

How the results depend on the processing

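Other scalings (RLE, upper quartile), no filter, a filter of 1 CPM in 3 libraries, no robust step, DESeq2, limma, fits of only the libraries compared and leaving out each library were run. Gene by gene, these were run for the 20 members given in full by rule, in the 3 comparisons of AEG1_MYC with WT, AEG1 and MYC. Of 1311 such values, 1272 kept their direction and side of the threshold, 17 changed sign and 22 passed the threshold only there, 17 with DESeq2 and 5 without AEG1_MYC replicate 3. The cause was not tested.

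DESeq2 called 12 mitotic genes higher in AEG1_MYC against WT (3.06% of all genes), 25 against AEG1 (3.4%) and 1 against MYC (2.56%). It called 21 in the test of any difference (5.12%). Between MYC carriers and non-carriers, a comparison chosen after seeing the data, it called 4 higher (1.52%). With each library left out, edgeR called 0 to 2 against WT and 0 to 5 against AEG1, both highest without AEG1_MYC replicate 3, where the calls among all genes went from 36 to 687 and from 44 to 630. The median log2 fold change ran from 0.84 to 2.02 against WT, and the interaction median from 0.78 to 1.72. The interaction median was 0.86 without AEG1_MYC replicates 1 and 2, where the lone liver left is assumed to vary like the other genotypes. It was 0.28 without WT replicate 1 and AEG1_MYC replicate 2.

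Among these 20 genes, signs turned for Cenpa, Smc2, Spc25, Mad2l1, Ect2 and Mybl2, none of them called. With each library left out, the AEG1_MYC to WT value ran from -0.074 to 0.29 for Mad2l1, -0.11 to 0.65 for Spc25, -0.058 to 0.31 for Cenpa and -0.065 to 0.17 for Smc2. Against MYC it ran from -0.0037 to 0.12 for Mad2l1, -0.21 to 1.15 for Ect2 and -0.16 to 0.42 for Mybl2. Limma gave -0.039 for Cenpa and -0.0020 for Smc2 against WT. Without AEG1_MYC replicates 1 and 2, Smc2 stood at -0.12 against WT, and against MYC Mad2l1 stood at -0.0015, Ect2 at -0.080 and Smc2 at -0.065. Without WT replicate 1 and AEG1_MYC replicate 2, Ect2 stood at -0.21 against MYC.

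No paired analysis was possible because each library is a different mouse and the labels give no litter or batch. On average over the 12 libraries 17 of the 49 genes stood under 1 CPM, so their values rest on few reads.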
